A study of Homo sapiens with 44 samples.

Results

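The complement genes examined here were C3, CFB, CFI, C1R, C1S, CD46, CD55 and CD59, 8 of the 40663 gene symbols in the count table of a bulk RNA-seq experiment on the human colon fibroblast line Ccd-18Co. They are members by their symbols, with no measured value in the rule. The experiment comprised 44 libraries in 11 groups of 4 replicates. After 72 h without serum, cells received 1 cytokine, or none, for a further 24 h. The cytokines were the interferons IFNα and IFNγ, TNF, TGF-β1, oncostatin M (OSM) and the interleukins IL-1β, IL-6, IL-13, IL-17A and IL-22. The dose of IL-1β was 0.1 ng/ml in the labels, although another passage of the study gives a different one, and that of every other cytokine was 10 ng/ml. In the labels these are Ccd18-Co cells with IL1B, IL6, IL13, IL17A, IL22, IFNA, IFNG, TGFB1, TNF or OSM. All groups come from the same cell line, and nothing in the labels says that replicates were separate cultures, so p-values measure only the spread between these libraries.

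Complement is a cascade of plasma proteins that tags surfaces for removal and forms pores in membranes. The proteases C1r and C1s start the classical pathway, factor B (CFB) forms the alternative pathway convertase that cleaves the central component C3, and factor I (CFI) inactivates C3b with the help of cofactors. CD46 is such a membrane cofactor, CD55 speeds the decay of convertases, and CD59 blocks the terminal pore. The liver makes most circulating complement, and fibroblasts are also known to make components and to carry the membrane regulators.

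The total estimated count per library was between 742173 and 2213424, with a median of 1480883, and 3 counts, the limit below which a gene was treated as not measured, corresponded to 1.39 to 3.85 CPM (counts adjusted for each library's TMM-normalized depth). The label says fibroblast, and 9 of 10 fibroblast markers were above that limit in every library. The hepatocyte markers ALB, APOA1 and TTR had 0 counts in every library, and the epithelial markers EPCAM, CDH1, KRT20 and CDX2 stayed at or below the limit, as did the leukocyte markers PTPRC, CD3E and CD79A and the endothelial markers PECAM1 and CDH5. The other markers were above it in some libraries: VIL1 (epithelial) in 42 with at most 44 counts, CD68 (often used for macrophages) in 34 with at most 134, and LYZ, VWF and CD14 in 1 or 2 with at most 4 or 5. CD68 was at 36.1 to 73.8 CPM with IFNα and 8.31 to 20.6 CPM with IFNγ, against 0 to 7.34 CPM in unstimulated cells. The summed CPM of the 6 leukocyte markers was 38 to 73.8 with IFNα, 8.31 to 20.6 with IFNγ and 0 to 9.3 in unstimulated cells. CD14, PTPRC, CD3E and CD79A had 0 counts in all IFNα libraries, while LYZ had at most 3 there and 0 in unstimulated cells. The part of CD68 in the results with either interferon was not tested. The genes fixed as checks of the stimuli passed the test for IL-1β, IL-13, IL-17A, IFNα, IFNγ, TGF-β1, TNF and OSM. SOCS3 did not for IL-6 (log2 fold change 1.09 ± 0.90 SE, adjusted p = 1), and no check gene was set for IL-22.

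The 8 genes fell into 2 classes by abundance. C1S, CD46, CD55 and CD59 had counts well above the limit in all 44 libraries, whereas C3, CFB, C1R and CFI were near it or absent in many. On a scale of CPM per kilobase of the canonical transcript, mean levels in unstimulated cells were 172 for C1S, 81.1 for CD59, 44.4 for CD55 and 44.0 for CD46, against 1.43 for C1R, 1.01 for CFB, 0.329 for C3 and 0.240 for CFI. These levels are estimates from bulk RNA, in which fewer expressing cells and less RNA per cell cannot be told apart. C1R overlaps C1RL on the same strand, as given below, and how far its counts reflect its own RNA was not tested.

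Each cytokine was compared with unstimulated cells by edgeR's quasi-likelihood test over 9513 genes, with Benjamini-Hochberg adjustment over all of them, and a gene is said to have risen or fallen at an adjusted p under 0.05. Of the 8 genes 7 could be tested. CFI had too few counts. With IFNα 1 rose (CFB) and 2 fell (CD46, CD55), where 4.99% of all tested genes rose and 4.86% fell (9.85% called). With IFNγ 1 rose (C1S) and 2 fell (CD46, CD55), where 5.52% of all tested genes rose and 5.13% fell (10.6% called). With IL-1β 1 fell (C1S), where 3.92% of all tested genes fell (7.38% called). With TNF 1 rose (CD59), where 5.37% rose (11.5% called). With OSM 1 fell (CD46), where 2.54% fell (3.96% called). None of the 7 was called with IL-6 (0.0105% of all genes), IL-13 (3.93%), IL-17A (1.52%), IL-22 (0%) or TGF-β1 (5.69%). For IL-22, edgeR called 0 genes, with 1037 at an unadjusted p under 0.05. The median log2 fold change of the 7 was 0.67 with IFNγ, 0.44 with TNF, 0.07 with IL-17A, -0.01 with IL-1β, -0.07 with IFNα, -0.11 with IL-6, -0.12 with OSM, -0.35 with IL-22, -0.44 with TGF-β1 and -0.46 with IL-13, beside medians over all tested genes between -0.05 and 0.00.

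C1S, the classical pathway protease that cleaves C4 and C2, was the most abundant of the 8 per kilobase. In unstimulated cells its 4 libraries were at 743, 460, 324 and 315 CPM. With IFNγ they were at 917, 709, 960 and 1210 CPM. The IFNγ libraries lay above the unstimulated ones except that the lowest of them was under the highest unstimulated library. C1S rose by 1.04 ± 0.22 on the log2 scale (SE, 2.05-fold, adjusted p = 0.00107), and the call held in 13 of 14 alternative analyses, the exception being a fit to the 8 libraries alone (adjusted p = 0.0555). With IFNα the libraries were at 856, 792, 515 and 552 CPM, and the log2 difference of 0.56 ± 0.22 did not pass the test (adjusted p = 0.112).

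Unstimulated replicate 1 stood above the other 3 for C1S and bears on these comparisons. Without it the C1S difference was 1.37 with IFNγ (adjusted p = 2.12e-05), and the difference with IFNα became 0.89 and passed the test (adjusted p = 0.00445). With IL-1β, C1S was at 297, 270, 262 and 287 CPM, below all 4 unstimulated libraries (12.8% of all tested genes had groups that did not overlap in this comparison). C1S fell by 0.73 on the log2 scale with IL-1β (SE 0.22, adjusted p = 0.0354). That call was lost in 7 of 14 alternatives, and without unstimulated replicate 1 the difference was -0.39 (adjusted p = 0.382). It was also lost without unstimulated replicate 2 (adjusted p = 0.0799) and without IL-1β replicate 1 (0.0639), 2 (0.0946), 3 (0.111) or 4 (0.0854). By mean level C1S ran from 948 CPM with IFNγ through 679 with IFNα and 586 with OSM to 279 with IL-1β, and no neighbors in that order differed by the test.

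C1R, the protease that activates C1s, was at 0 in 29 of 44 libraries, while C1S had at least 289 counts in each of the 44. The 16 estimates for C1R above 0 were all fractional rather than whole numbers before rounding. Its highest values were 33 CPM in TNF replicate 3, 30.3 CPM in IFNγ replicate 3 and 14.2 CPM in unstimulated replicate 1, with the other 3 libraries of both the TNF and the unstimulated group at 0. No comparison with unstimulated cells passed the test. Among pairs of cytokines, IFNγ and TNF exceeded IL-13, where all 4 libraries were at 0 (adjusted p = 0.0321 and 0.0427 by edgeR). Taking 3 counts for the IL-13 group gave ratios of 19.3 and 14.4, which leave out the spread between libraries. edgeR's 95% intervals of the log2 differences were 2.33 to 11.62 and 1.92 to 11.27. All 44 TNF counts came from replicate 3. In each pair the libraries overlapped at 0, and DESeq2's Wald test called neither. C1R lies on the same strand as C1RL and overlaps it by 2954 bases. Other members also overlap protein-coding models on their own strand. These overlaps are 9170 bases for C1S (ENSG00000290146), 19458 for CD59 (ENSG00000284969), 70992 for CFI (ENSG00000285330) and 649 for C3 (GPR108). How reads were shared between overlapping genes is not given in the sources used here.

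CD55, which dissociates C3 and C5 convertases on the cell's own surface, was lower with both interferons. Unstimulated libraries were at 78.8, 142, 118 and 122 CPM, and IFNα libraries at 47.4, 41.5, 62.8 and 51.1 CPM. All IFNα libraries were below all unstimulated ones (15% of all tested genes had groups that did not overlap in this comparison). CD55 fell by 1.18 on the log2 scale with IFNα (SE 0.23, 95% interval -1.65 to -0.71, adjusted p = 0.000241), to 0.441 of the unstimulated level, and the call held in all 14 alternatives. With IFNγ the libraries were at 51.2, 59.8, 97.1 and 67.6 CPM, of which 1 lay within the unstimulated range. The fall with IFNγ was 0.74 on the log2 scale (SE 0.23, adjusted p = 0.0297), and 7 of 14 alternatives lost it, among them the fits without unstimulated replicate 2 (adjusted p = 0.147), 3 (0.0681) or 4 (0.0812) and without IFNγ replicate 1 (0.137), 2 (0.0821) or 4 (0.0869).

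Levels of CD55 pointed the other way with IL-1β, at 185, 197, 134 and 150 CPM, but the log2 difference of 0.54 ± 0.22 missed the test (adjusted p = 0.166). Compared directly, CD55 was lower with IFNα than with IL-1β by 1.72 on the log2 scale (adjusted p = 2.04e-07), than with IL-17A by 1.52 (adjusted p = 3.08e-06) and than with TNF by 1.40 (adjusted p = 1.28e-05). In all, CD55 passed the test in 17 of 55 pairs of groups, each adjusted over genes and not over pairs. Over all tested genes 7.88% of the tests in these pairs passed, with a median of 1 pair per gene and an upper quartile of 6. Mean levels of CD55 ran from 167 CPM with IL-1β to 50.7 CPM with IFNα. IFNγ and IFNα, at the low end, did not differ by the test (log2 difference 0.44, 95% interval -0.03 to 0.92, adjusted p = 0.288).

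CD46, the membrane cofactor for factor I, fell with IFNα, IFNγ and OSM. Unstimulated libraries were at 127, 160, 121 and 176 CPM. IFNα libraries were at 97, 101, 87.4 and 92.8 CPM, and OSM libraries at 96.8, 96, 91.4 and 89.1 CPM, in both cases below every unstimulated library (15% of all tested genes did not overlap in the IFNα comparison and 10.4% in the OSM comparison). The fall was 0.62 on the log2 scale with IFNα (SE 0.16, adjusted p = 0.00521) and 0.64 with OSM (SE 0.16, adjusted p = 0.0105). The IFNα call held in 13 of 14 alternatives, and with all genes that had any count the adjusted p was 0.0989. The OSM call was lost in 4, among them the fits without unstimulated replicate 2 (adjusted p = 0.0536) or 4 (0.0895).

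With IFNγ, CD46 was at 89.6, 116, 104 and 105 CPM, also below every unstimulated library (11.9% of all tested genes did not overlap). It fell by 0.49 on the log2 scale (SE 0.16, adjusted p = 0.0358), and 8 of 14 alternatives lost that call, among them the fits without unstimulated replicate 2 (adjusted p = 0.136) or 4 (0.193) and without IFNγ replicate 1 (0.152), 3 (0.11) or 4 (0.0947). CD46 was likewise at lower mean levels with IL-13 (105 CPM, adjusted p = 0.0917) and TGF-β1 (108 CPM, adjusted p = 0.0957) without passing the test. TNF left it at 114 to 179 CPM, and CD46 was lower with OSM than with TNF by 0.65 on the log2 scale (adjusted p = 0.00372). OSM and IL-6, cytokines of the same family, differed by -0.53 (95% interval -0.85 to -0.21, adjusted p = 0.061, 2.67% of all genes called).

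Promoters of these regulators are shown because both fell with interferon. RefSeq (GRCh38.p14) gave a promoter, 250 bases before to 50 after a transcription start, for 6 of the 8 genes. Of these, 250 bases before the start are printed, 5′ to 3′ on the gene's strand, for CD55 (chr1:207321428-207321677, plus strand) and for the first of 2 starts of CD46 (chr1:207751788-207752037, plus strand). Capitals would mark a match to any of 5 motifs searched on both strands: the interferon-stimulated response element ISRE (GAAA, any 2 bases, GAAA), the STAT element GAS (TTC, any 3 bases, GAA), NF-kB (GGGA, any 4 bases, CC), C/EBP (TTGC, any 2 bases, AA) and AP-1 (TGA, any base, TCA).
CD55: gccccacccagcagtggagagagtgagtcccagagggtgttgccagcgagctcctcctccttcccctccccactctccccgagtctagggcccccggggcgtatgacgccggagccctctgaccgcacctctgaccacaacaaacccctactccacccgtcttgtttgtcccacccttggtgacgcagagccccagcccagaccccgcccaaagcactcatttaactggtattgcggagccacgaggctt
CD46: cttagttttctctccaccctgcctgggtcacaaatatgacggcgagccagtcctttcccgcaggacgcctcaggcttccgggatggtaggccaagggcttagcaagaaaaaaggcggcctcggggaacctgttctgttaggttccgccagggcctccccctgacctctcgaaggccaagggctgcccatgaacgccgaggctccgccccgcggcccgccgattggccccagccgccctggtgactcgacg
Neither 300-base window held any of the 5, which were present in 3.57% (ISRE), 7.66% (GAS), 25.6% (NF-kB), 10.5% (C/EBP) and 7.71% (AP-1) of 35114 promoters of the same length. These letters not being in the window says nothing about the factors that bind such motifs.

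CD59, the inhibitor of the membrane attack complex, had mean levels between 472 CPM with IL-13 and 832 CPM with TNF. Unstimulated libraries were at 752, 533, 558 and 607 CPM and TNF libraries at 905, 723, 855 and 846 CPM. The lowest TNF library was under the highest unstimulated library and above the other 3. CD59 rose by 0.44 on the log2 scale with TNF (SE 0.14, 1.36-fold, adjusted p = 0.0257). This call was lost in 7 of 14 alternatives, including the fits without unstimulated replicate 2 (adjusted p = 0.104), 3 (0.0708) or 4 (0.053) and without TNF replicate 1 (0.0698) or 3 (0.0551). With TGF-β1 the libraries were at 873, 881, 814 and 645 CPM and the difference of 0.39 ± 0.14 missed the test (adjusted p = 0.0836), but it passed without unstimulated replicate 1 (0.5, adjusted p = 0.0268) or TGF-β1 replicate 4 (0.51, adjusted p = 0.0165) and with DESeq2's Wald test (0.42, adjusted p = 0.0309). IL-13 libraries were at 410 to 539 CPM, and CD59 was higher with TNF than with IL-13 by 0.82 (adjusted p = 1.52e-05) and with TGF-β1 than with IL-13 by 0.76 (adjusted p = 7.48e-05). Its level with IFNγ, 455 to 701 CPM, gave a log2 difference of 0.00 from unstimulated cells (95% interval -0.27 to 0.28).

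**Figure D1:**
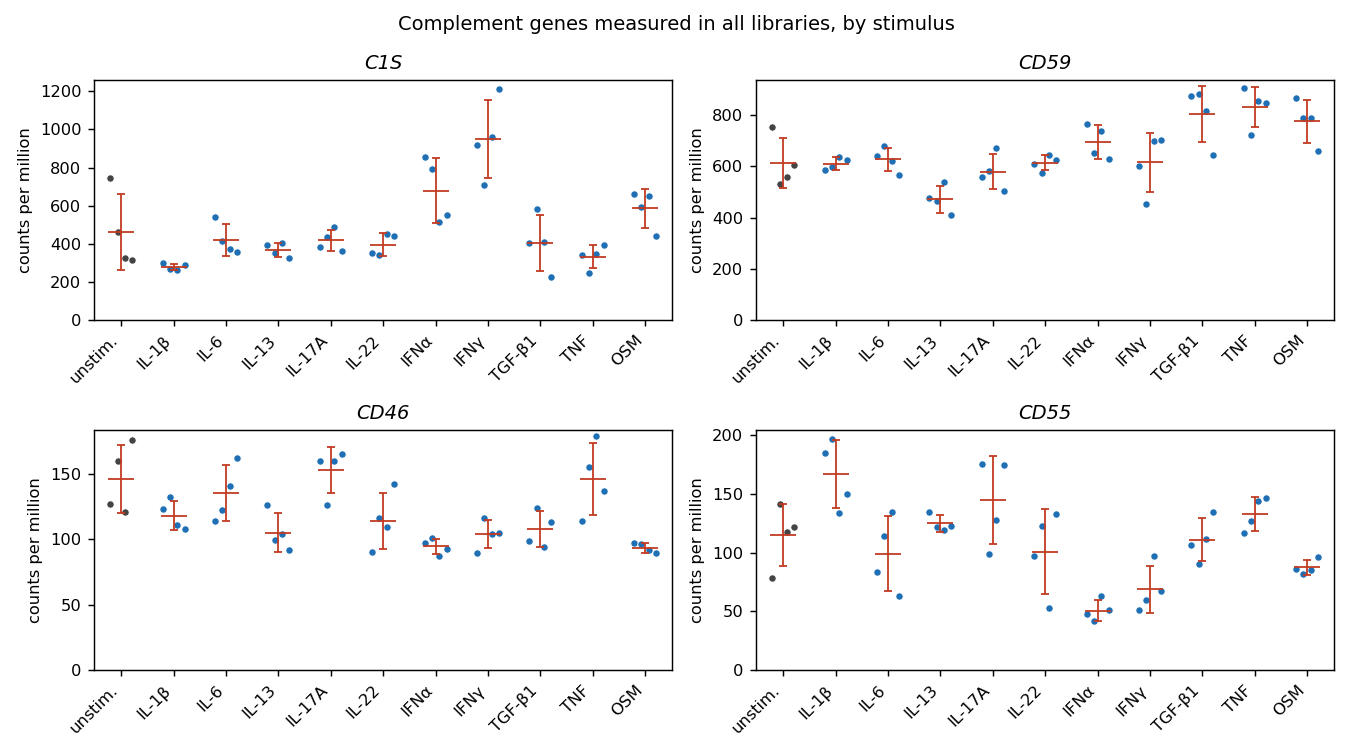
CPM of C1S, CD59, CD46 and CD55 in each of the 4 libraries (points) of 11 groups, with the mean (bar) and SD (error bars). CD55 libraries with IFNα, at 41.5 to 62.8 CPM, all lie below the unstimulated libraries, C1S is highest with IFNγ, and unstimulated replicate 1 stands at 743 CPM for C1S.

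CFB, which supplies the protease of the alternative pathway convertase, had 16, 3, 0 and 0 counts in unstimulated libraries. With IFNα it had 59, 31, 32 and 21 counts (32.5, 20.4, 25.4 and 13.1 CPM, against 7.83, 2.19, 0 and 0 CPM). The IFNα libraries were all above the unstimulated ones (15% of all tested genes had groups that did not overlap in this comparison). CFB rose with IFNα by 3.03 ± 1.01 on the log2 scale (95% interval 1.00 to 5.07, adjusted p = 0.0453). The call was lost in 8 of 14 alternatives, with the same direction throughout: the log2 fold change was between 2.66 and 4.85 and the adjusted p between 0.000284 and 0.136. Those that lost it included DESeq2's Wald test (adjusted p = 0.0815) and the fits without unstimulated replicate 2 (0.108), 3 (0.127) or 4 (0.136) and without IFNα replicate 1 (0.104), 2 (0.0622) or 3 (0.0781).

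IL-1β and TNF gave CFB levels of similar size. With IL-1β the counts were 52, 14, 30 and 21, and with TNF 12, 17, 31 and 47, in both cases above every unstimulated library in CPM (12.8% and 14.1% of all tested genes had groups that did not overlap in these comparisons). The log2 differences were 2.62 ± 1.00 (adjusted p = 0.12) and 2.69 ± 1.01 (adjusted p = 0.077). Without unstimulated replicate 1, whose 16 counts were the highest of the group, both passed the test, at 4.43 (adjusted p = 0.0305) and 4.5 (adjusted p = 0.018). Both also passed in edgeR with all genes that had any count (adjusted p = 0.00399 and 0.0022), and TNF in the 8 libraries alone (0.0489). The other 12 of 14 alternatives with IL-1β and 11 of 14 with TNF did not call CFB. TGF-β1 libraries had 0, 2, 0 and 1 counts. CFB was higher with TNF than with TGF-β1 (adjusted p = 0.0172) and lower with TGF-β1 than with IFNα (adjusted p = 0.00503). IFNγ, at 9, 2, 11 and 24 counts, gave 1.67 ± 1.02 (adjusted p = 0.344). TNF and IL-1β could not be separated from each other for CFB (log2 difference 0.07, 95% interval -1.72 to 1.85, 1.15% of all genes called).

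CFB overlaps C2 by 24 bases and a further protein-coding model, ENSG00000244255, by 6399 bases, all on the same strand, so that its counts may be shared with these. Its promoter is shown because CFB passed the test with IFNα and its window held 4 motif matches, where no other single window of a member held more than 3. The 250 bases before the start lie at chr6:31945845-31946094, plus strand, and matches are in capitals.
CFB: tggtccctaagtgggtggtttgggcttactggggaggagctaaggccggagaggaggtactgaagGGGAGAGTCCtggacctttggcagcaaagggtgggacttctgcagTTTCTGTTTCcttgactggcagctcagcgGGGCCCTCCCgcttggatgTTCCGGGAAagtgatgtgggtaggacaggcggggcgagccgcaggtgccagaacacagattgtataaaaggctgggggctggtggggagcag
From 5′ to 3′ these are NF-kB at position -185 from the start, ISRE on the opposite strand at -140, NF-kB on the opposite strand at -111 and GAS at -92, and none overlaps another. Windows of CD59 held GAS, C/EBP or AP-1 matches, and those of C1R held GAS, NF-kB or C/EBP matches. Neither gene was called with IFNα or IFNγ against unstimulated cells. A match is a description of the letters and not evidence of binding.

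C3, the component on which all complement pathways converge, had 4, 3, 0 and 4 counts in unstimulated libraries. It had 6, 18, 20 and 30 with IL-1β and 7, 5, 11 and 11 with TNF, above every unstimulated library in CPM. Groups did not overlap for 12.8% (IL-1β) and 14.1% (TNF) of all tested genes. At these depths the log2 differences of 2.70 ± 1.04 and 1.71 ± 1.05 did not pass the test (adjusted p = 0.125 and 0.345). With TGF-β1 all 4 libraries were at 0, and with IL-22 a single count was seen. Between cytokines, C3 was higher with IL-1β (adjusted p = 0.00294) and with TNF (adjusted p = 0.019) than with TGF-β1. Taking 3 counts for the TGF-β1 group gave ratios of 17.5 and 9.20, which leave out the spread between libraries. edgeR's 95% interval of the log2 difference was -10.44 to -3.78 for TGF-β1 minus IL-1β and 2.68 to 9.56 for TNF minus TGF-β1. C3 was also lower with IL-13, at 0, 0, 6 and 0 counts, than with IL-1β (log2 difference -3.48 ± 1.11, adjusted p = 0.0289). However, 1 IL-13 library lay within the IL-1β range. Mean levels of C3 and CFB over the 11 groups correlated at Pearson's r = 0.764, a description over groups that share the low counts of both genes.

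CFI, which cleaves C3b and C4b, was seen almost only with IL-13 and OSM. It had 4, 2, 6 and 5 counts with IL-13 and 5, 6, 3 and 2 with OSM, against 1, 0, 2 and 0 in unstimulated libraries. With IL-17A there was 1 count in all, and the remaining 7 cytokines had 0 in all 4 libraries. The ratio of summed counts to unstimulated cells was 6.31 with IL-13 (95% exact interval 1.82 to 33.6) and 5.56 with OSM (1.59 to 29.8), intervals that cover counting error only. Fitted without a filter on low counts, neither passed the test (adjusted p = 0.698 and 0.745). For the cytokines with 0 counts the upper ends of the ratio's interval were 2.31 to 3.25, so lower levels of CFI there were not detectable at this depth.

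**Figure D2:**
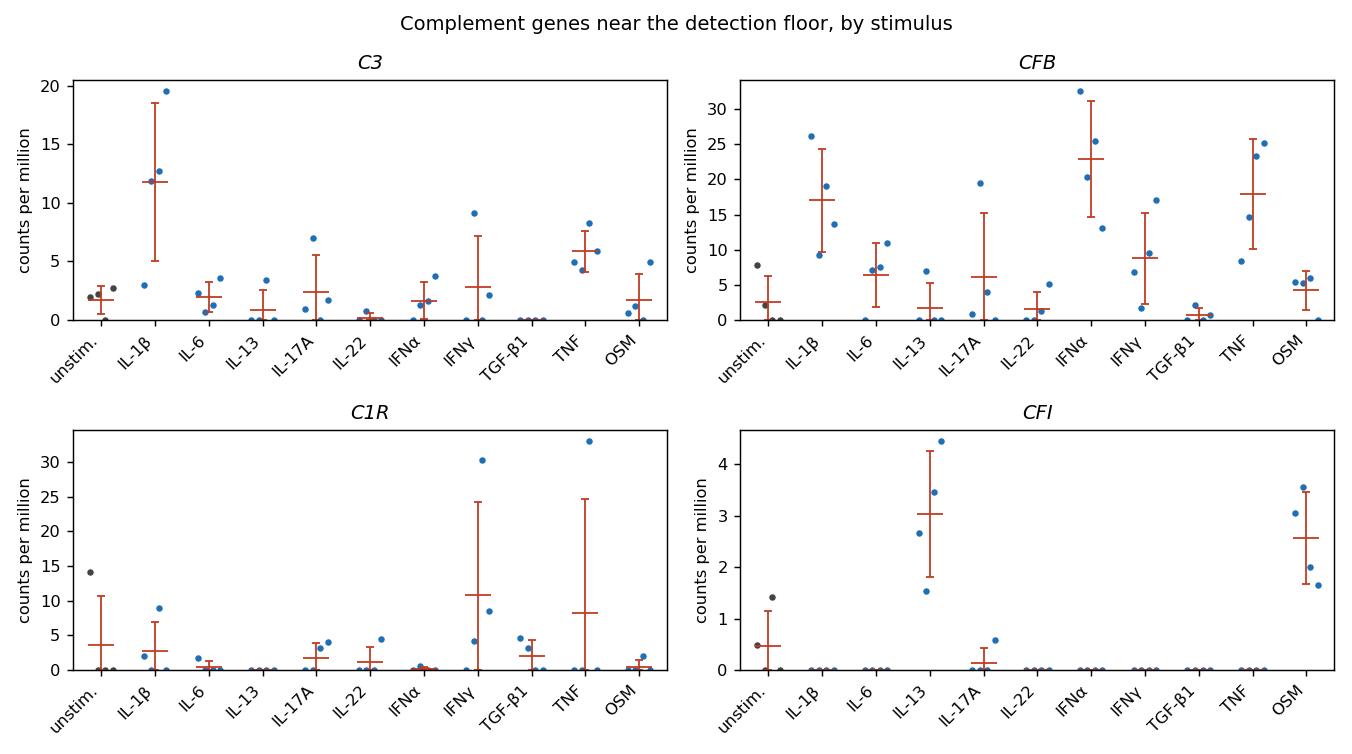
CPM of C3, CFB, C1R and CFI in each of the 4 libraries (points) of 11 groups, with the mean (bar) and SD (error bars, cut at 0). C3 reaches 19.5 CPM with IL-1β, CFB 32.5 CPM with IFNα, C1R is at 0 in 29 of 44 libraries, and CFI is present in all libraries of only IL-13 and OSM.

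Direct comparisons of related cytokines separated none of the 7 genes. Between IFNγ and IFNα, C1S was higher with IFNγ by 0.48 (95% interval 0.03 to 0.93, adjusted p = 0.198, 9.39% of all genes called), and CFB was lower with IFNγ by a log2 difference of -1.36 (95% interval -3.22 to 0.49, adjusted p = 0.441). Between TNF and IL-1β, CD59 differed by 0.45 (95% interval 0.17 to 0.72, adjusted p = 0.105, 1.15% of all genes called). Over all 55 pairs, C1S passed the test in 19, CD55 in 17, CD46 in 13, CD59 in 11, CFB in 9, C3 in 5 and C1R in 2. Over all tested genes 7.88% of the tests in these pairs passed, with a median of 1 pair per gene and an upper quartile of 6.

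Across the 11 groups, genes among the 3 whose mean log2 CPM was most like each member's are given with Pearson's r over 11 groups. For C1S these were WARS1 (0.925) and PLAAT4 (0.922). For CD55 they were SEMA5A (0.943), HSD17B12 (0.939) and OPN1SW (0.924), and for CD46 CENPI (0.917), KIF20B (0.887) and SMC3 (0.876). For CD59 they were HMGXB4 (0.900), FADS2 (0.897) and NELFE (0.888). For C3 they were MAP2K1 (0.954), CXCL5 (0.949) and RNF144B (0.937), for CFB CFLAR (0.925), SMAP2 (0.908) and TMED5 (0.890), and for C1R MAP4K4 (0.954), DOCK4 (0.887) and ABHD16A (0.861), for 3 members with counts near the limit. Among the members, C1S and CD55 ran opposite, at r = -0.855.

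Of 47 other complement genes in a list, 15 were at 0 in every library and 10 had enough counts to test. With IFNα 1 rose, C3AR1, and 0 fell, where 4.99% of all tested genes rose and 4.86% fell. C3AR1 was above 3 counts in 4 libraries, all with IFNα. It was therefore tested only because of that group, and its call is a description tied to the filter. With IFNγ 2 rose, SERPING1 and C1QBP, and 1 fell, MASP1, where 5.52% rose and 5.13% fell. COLEC10 alone fell with TNF (6.09% of all tested genes fell), OSM (2.54%) and IL-1β (3.92%), and MASP1 alone fell with TGF-β1 (3.08%). None of the 10 passed with IL-6, IL-13, IL-17A or IL-22. The median log2 fold change of the 10, C3AR1 among them, was 0.26 with IFNα. Of the 9 measured in either group it was 0.57 with IFNγ, 0.41 with OSM, 0.12 with IL-22, 0.07 with TGF-β1, 0.01 with IL-6, -0.08 with IL-17A, -0.41 with IL-13, -0.47 with IL-1β and -0.64 with TNF, beside the same medians over all tested genes as above.

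SERPING1, the C1 inhibitor that blocks C1r and C1s, was at 19.1, 2.92, 13.4 and 5.46 CPM in unstimulated libraries and at 67, 32.4, 88.4 and 98.3 CPM with IFNγ, a rise of 2.77 ± 0.63 (adjusted p = 0.00183). C1QBP, a C1q-binding protein found largely in mitochondria, rose by 0.93 ± 0.21 with IFNγ (adjusted p = 0.00174). C3AR1, the C3a receptor, had 42, 28, 19 and 21 counts with IFNα and 0 in every unstimulated library (adjusted p = 0.000648 by edgeR). Taking 3 counts for the unstimulated group gave a ratio of 37.3, which leaves out the spread between libraries. edgeR's 95% interval of the log2 difference was 4.85 to 10.51. DESeq2's Wald test did not call C3AR1. C3AR1 entered the test only through these IFNα libraries, so its adjusted p is tied to the filter. CD68 was higher in the same libraries, as given above.

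COLEC10, a collectin of the lectin pathway, was at 191, 201, 373 and 305 CPM in unstimulated libraries and at 18.4, 54.3, 40.5 and 35.4 CPM with TNF. All TNF libraries were below all unstimulated ones (14.1% of all tested genes had groups that did not overlap in this comparison). COLEC10 fell by 2.86 on the log2 scale with TNF (SE 0.29, adjusted p = 3.62e-10). It fell by 1.5 with OSM (SE 0.27, adjusted p = 2e-04) and by 1.17 with IL-1β (SE 0.26, adjusted p = 0.00185). MASP1, a protease of the lectin pathway, fell by 1.24 with IFNγ (SE 0.33, adjusted p = 0.00934), from 47.4 to 75.4 CPM in unstimulated libraries to 18.5 to 38.4 CPM, and was not called without IFNγ replicate 3 or 4, which left 2 genes of the list called. It fell by 1.14 with TGF-β1 (SE 0.33, adjusted p = 0.0295), where the libraries overlapped, and that call was lost without unstimulated replicate 4 or TGF-β1 replicate 3 or 4, which left 0 genes of the list called, and without unstimulated replicate 1, where 1 other gene, C1RL, was called.

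**Figure D3:**
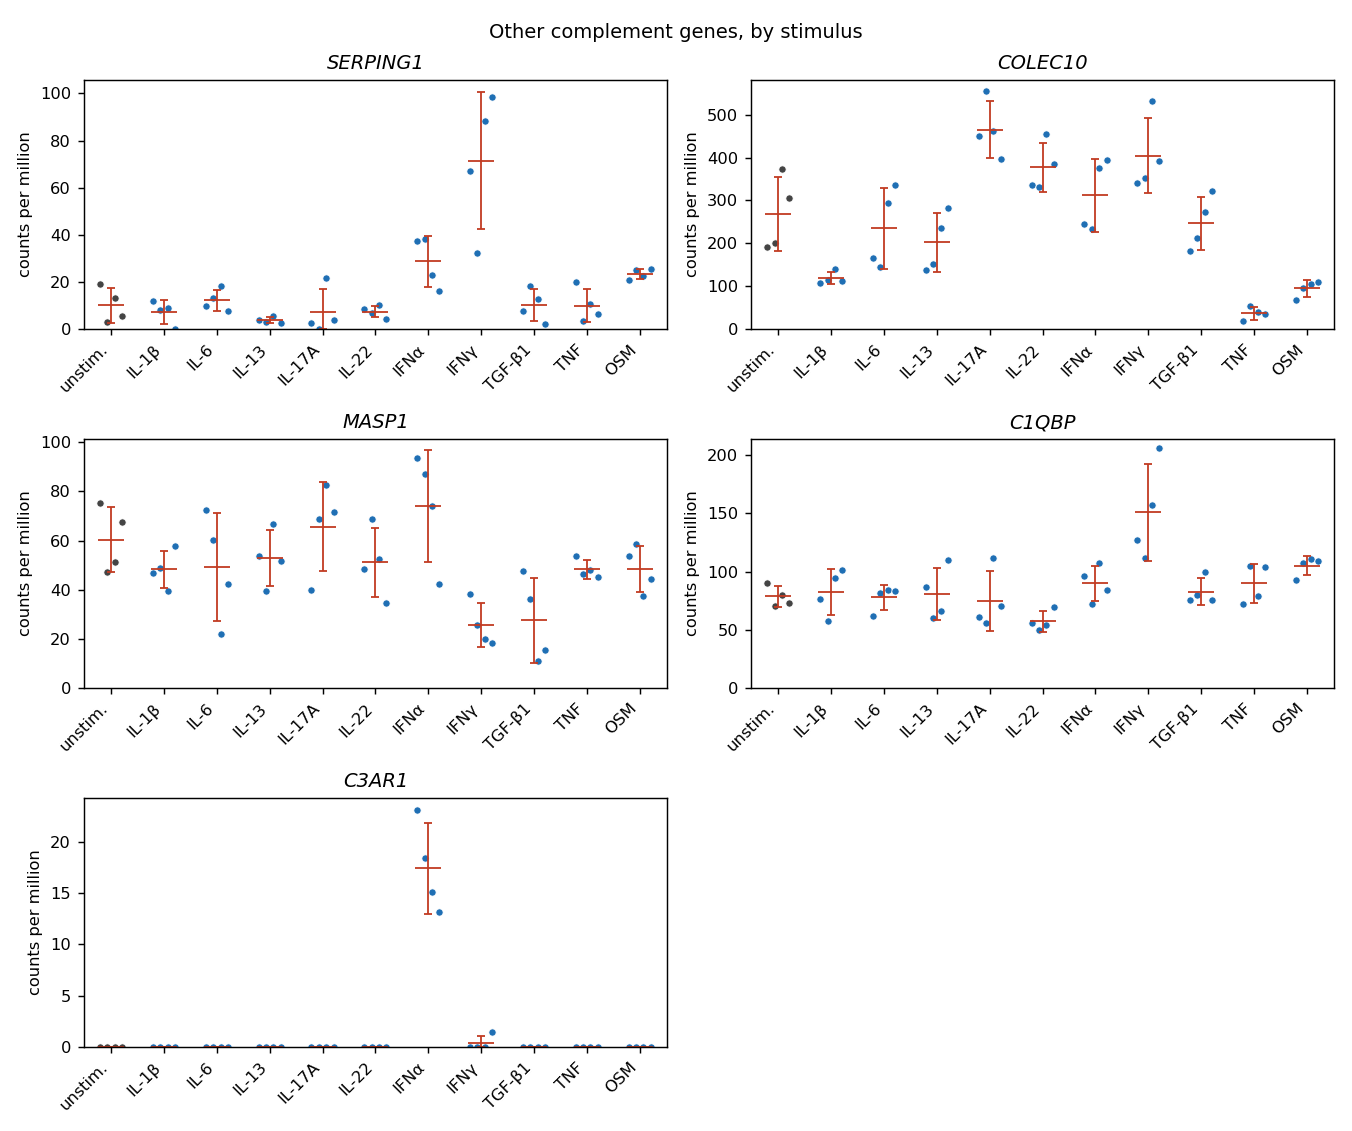
CPM of 5 other complement genes in each of the 4 libraries (points) of 11 groups, with the mean (bar) and SD (error bars). SERPING1 with IFNγ, at 32.4 to 98.3 CPM, and COLEC10 with TNF, at 18.4 to 54.3 CPM, lie apart from the unstimulated libraries (11.9% and 14.1% of all tested genes do so in these comparisons).

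**Figure D4:**
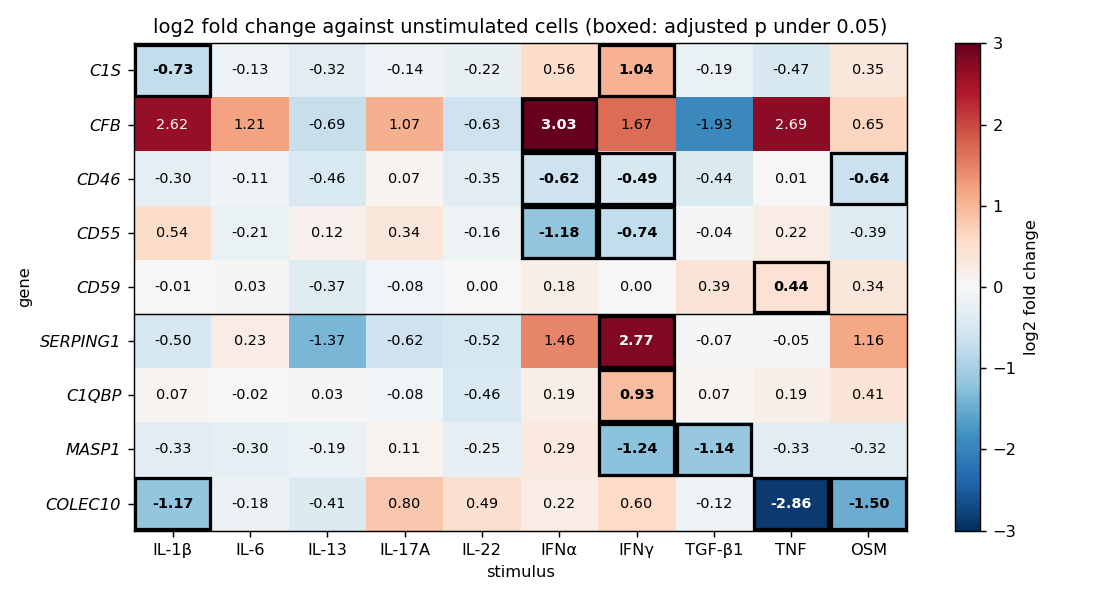
Log2 fold change against unstimulated cells for 5 of the 8 complement genes (above the line) and 4 other complement genes (below), by cytokine, with boxes at an adjusted p under 0.05. C3, C1R and C3AR1 are left out because a group at 0 gives no fold change, and CFI because it was not tested.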

How the data were processed

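The samples were 44 bulk RNA-seq libraries, grouped by the cytokine in the sample labels. The authors checked reads with FastQC (0.11.9) and MultiQC (1.14), quantified them with kallisto (0.48.0, build hg38 in the submitters' processing notes) and deposited estimated counts per gene symbol, unscaled for depth. Which transcriptome release was used, how transcripts were collapsed to symbols and whether strand was used are not given in the sources used here. Here, counts were rounded to whole numbers (5.77% were not whole). Genes were filtered with filterByExpr (11 groups, minimum count 10), normalized by TMM (trimmed mean of M values), and tested with edgeR (4.0.16, R 4.3.3) in 1 quasi-likelihood model of all 44 libraries, with Benjamini-Hochberg adjustment over 9513 genes for each comparison. DESeq2 (1.42.0) size factors and Wald test, other filters, the 8 libraries compared alone, a replicate block and each library left out in turn were alternatives. A call also needing an absolute log2 fold change above 1.5, the study's threshold, was a further one. The code was tested on simulated data. PCR copies could not be recognized without molecular identifiers, so floors and the exact intervals of ratios reflect counting error alone, whereas intervals of log2 fold changes come from the edgeR fit and include the spread between libraries. Coordinates and transcript lengths come from GENCODE release 44, promoters from RefSeq. Replicates of a group were compared in 66 pairs, of which 0 were identical (lowest chi-square per degree of freedom 3.21). The members and gene lists were chosen with earlier results of these data known. Named genes were the 8 members, up to 8 other complement genes that passed a test, the 3 genes most like each member and the stimulus checks. Some items are not reported here, and the list counts leave them out.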

Additional observations from a re-analysis of the deposited data

Results flagged for a closer look

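In 12 of 79 gene-by-group sets of 4 libraries for the 8 complement genes, 1 library stood apart from the other 3 by more than Dixon's 95% critical value for 4 samples. In 10 of them 1 library had counts and the other 3 were at 0, which fixes Dixon's ratio at 1 whatever the count, so the share of about 1 in 20 that chance gives does not apply to them. For C1R these were unstimulated replicate 1 (14.2 CPM), IL-6 replicate 1 (1.71 CPM), IL-22 replicate 4 (4.48 CPM), IFNα replicate 2 (0.658 CPM), TNF replicate 3 (33 CPM) and OSM replicate 3 (2 CPM). For C3 they were IL-13 replicate 3 (3.46 CPM) and IL-22 replicate 2 (0.754 CPM), for CFB IL-13 replicate 2 (6.95 CPM) and for CFI IL-17A replicate 4 (0.574 CPM). CFB was at 0 CPM in OSM replicate 4 against 5.34 to 6 CPM in the other 3 libraries. CD46 was at 126 CPM in IL-17A replicate 2, and the other 3 libraries of that group were at 160 to 165 CPM.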

How the results depend on the processing

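Of the log2 fold changes of the tested complement genes recomputed under the alternatives, 900 kept their side of the threshold, 43 no longer passed it, 11 newly passed it and 0 reversed a call. For the 8 complement genes, all genes with any count gave 2 calls with IL-1β, 1 with IL-13 and 0 with OSM. The 8 libraries alone gave 0 with IL-1β, IFNγ and OSM. With TNF, both of these settings kept 1 call, but it was CFB in place of CD59. With IL-1β, the fit without unstimulated replicate 1 kept 1 call, CFB in place of C1S. A log2 fold change above 1.5 left 1 call with IFNα (CFB) and 0 with IL-1β, IFNγ, TNF and OSM. DESeq2's Wald test gave 1 with TGF-β1 (CD59), and 0 pairs for C1R. For the other complement genes, all genes with any count gave 2 calls with IL-1β, 1 with IL-17A and 2 with IFNα. DESeq2's Wald test gave 1 with IL-17A and 0 with IFNα. The 8 libraries alone gave 0 with TGF-β1. The fold-change threshold left 1 with IFNγ and 0 with IL-1β, TGF-β1 and OSM. The cause of these shifts was not tested, except that the fold-change threshold removes smaller changes by construction. Leaving out 1 library gave 0 to 1 calls of the 8 genes with IL-1β, 2 to 4 with IFNα, 1 to 3 with IFNγ, 0 to 1 with TGF-β1, 0 to 2 with TNF and 0 to 1 with OSM, and 0 for the others. For the other complement genes it gave 1 with IL-1β, IFNα, TNF and OSM, 0 to 1 with IL-17A and TGF-β1, 2 to 4 with IFNγ and 0 for the others. Same-numbered deviations correlated at -0.0656 to 0.21 over 2000 genes, and in 0 of 10 cytokines did all pairs exceed 0.1. Such weak correlations gave no clear pairing of samples by replicate number. A check over many genes cannot show that single genes have no replicate effect. With the replicate block, CFB with IFNα had an adjusted p of 0.053 and COLEC10 with IL-17A passed, giving 1 call. Scaling by total counts in place of TMM shifted the median of all genes by -0.178 with IL-13, -0.132 with IL-1β and -0.111 with IFNα, and 5 of 88 member levels. Counts of C3, CFB, C1R and CFI were often below 10, which limits what their comparisons can show. The part of depth in these low counts was not tested.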
